A study of Mus musculus with 2 samples.

Results

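Small leucine-rich proteoglycans are secreted matrix proteins built around leucine-rich repeats, and most carry sulfated sugar chains. The 9 genes described here are Dcn, Bgn, Lum, Fmod, Prelp, Ogn, Aspn, Omd and Podn, core members of the family. All were found among the 30385 genes listed. These genes, and the gene lists further on, were chosen by name with earlier results of these data known. The core proteins of the 9 genes sit on collagen fibrils, where they affect fibril width and spacing. Several of them also bind growth factors such as TGF-beta. In the heart they are known mainly as products of fibroblasts and of vessel and valve cells, and their levels are known to change when the matrix is remodelled.

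The data were 5′RNA-seq read counts per gene from mouse hearts, a method that sequences the 5′ ends of unfragmented polyA RNA. The MHC403 library came from MHC403/+ mice, which carry a missense mutation of the myosin heavy chain found in human hypertrophic cardiomyopathy, and the WT library from wild-type mice. Both groups were of the 129/SvEv strain, aged 8 to 16 weeks, and both had received 2 subcutaneous doses of cyclosporine A (CsA), an immunosuppressant that inhibits calcineurin, on each day of 2 weeks, at 15 mg per kg. Animals of a genotype were pooled into 1 library (how many per pool is not stated in the labels), and therefore no difference below has a replicate check and none was tested between genotypes. An effect of CsA that differs by genotype cannot be told apart from the genotype itself.

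The libraries held 5468677 reads (MHC403) and 5481123 reads (WT). Levels are given as reads or as RPM (reads scaled to a common library size), and ratios as MHC403 over WT after this scaling, each followed by an exact 95% interval that covers counting error only. The 9507 genes that reached 50 reads in one library or the other are called measured, and a ratio of 2 or more in either direction counts as higher or lower. By this rule 26.1% of measured genes were higher in MHC403 and 2.43% were lower. The median log2 ratio of measured genes was 0.57, while mitochondrially encoded reads took 13.7% of the MHC403 library and 29.5% of the WT library. Scaling by the median of ratios lowers every log2 ratio by 0.55, and with it 10.9% of measured genes were higher and 7.59% lower. Positions are on the mm9 build.

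Of the 9 genes, 8 were measured. Fmod, Bgn, Aspn, Lum and Podn, 5 of the 8, were higher in MHC403 by 2-fold or more, against the 26.1% of all measured genes. None was lower by as much, against 2.43%, and Dcn, Prelp and Ogn lay within 2-fold, Ogn on the lower side. The median log2 ratio of the 8 genes was 1.74 (3.35-fold), which was 1.17 above the median of all measured genes. Requiring 4-fold left 3 of the 8 higher (Fmod, Bgn and Aspn), against 5.8% of all measured genes, and none lower, against 0.326%. Requiring the whole counting interval to pass 2-fold left the same 5 higher, against 12.6%, and none lower, against 1.04%. With no read minimum, leaving out only genes at 0 in a library and at 3 reads or fewer in the other, the shares over all genes were 30% and 4.61%, and 5 of the family were again higher and none lower. The ninth gene, Omd, had 0 reads in the MHC403 library and 1 in the WT library, too few for a ratio.

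The promoters of 3 genes are shown because these genes bear the main contrasts: Bgn, which gained the most reads, and Aspn and Ogn, which lie close together on chromosome 13 and had ratios on opposite sides of 1. Each run is the 250 bases before the start that RefSeq annotates on GRCm38.p6, on the plus strand, and it was not matched to the starts that the table lists on mm9. The coordinates are chrX:73483351-73483600 for Bgn, chr13:49544193-49544442 for Aspn and chr13:49607765-49608014 for Ogn. Capitals mark every match, on either strand, to the TATA box core TATAAA, the AP-1 site TGANTCA, the SMAD-type site CAGACA and the CCAAT box.
Bgn: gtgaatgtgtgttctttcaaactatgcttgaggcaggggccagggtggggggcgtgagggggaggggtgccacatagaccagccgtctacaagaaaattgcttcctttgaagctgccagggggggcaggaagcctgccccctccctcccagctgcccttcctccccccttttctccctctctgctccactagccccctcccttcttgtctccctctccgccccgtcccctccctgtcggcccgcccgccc
Aspn: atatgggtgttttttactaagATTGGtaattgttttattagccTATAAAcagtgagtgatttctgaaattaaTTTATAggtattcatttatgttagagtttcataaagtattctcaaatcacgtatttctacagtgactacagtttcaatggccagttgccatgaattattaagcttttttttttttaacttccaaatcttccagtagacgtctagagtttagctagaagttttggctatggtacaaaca
Ogn: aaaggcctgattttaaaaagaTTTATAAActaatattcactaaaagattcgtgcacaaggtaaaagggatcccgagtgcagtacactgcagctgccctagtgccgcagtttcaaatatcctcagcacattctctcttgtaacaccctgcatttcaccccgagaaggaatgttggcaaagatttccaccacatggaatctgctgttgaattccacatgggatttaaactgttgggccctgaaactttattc

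Of the 9 genes 7 had an entry in the RefSeq promoter table, with 8 promoters in all, while Dcn and Lum had none. The Bgn promoter held none of the motifs and had a GC content of 64.4%. The Aspn promoter had a GC content of 30% with TATAAA on each strand, 207 bases (plus strand) and 178 bases (minus strand) before the start, and CCAAT on the minus strand. The Ogn promoter, at 42% GC, held TATAAA on both strands 227 and 229 bases before the start, where the matches overlap. Among all 32851 promoters the median GC content was 52.4%, and in the same 250 bases 12.4% held the TATA core, 33.8% the CCAAT box, 17.1% the SMAD-type site and 6.75% the AP-1 site. Of the 8 promoters none held the SMAD-type or the AP-1 site. These matches describe letters only and show no binding.

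Biglycan and decorin, the closest relatives in the family, carry chondroitin or dermatan sulfate chains, and they differed in how far they departed from WT. Biglycan, Bgn (chromosome X, 70728974 to 70741275), had 4527 reads (828 RPM) in the MHC403 library against 542 reads (98.9 RPM) in the WT library. Its ratio was 8.37 (7.66 to 9.17), and 1.73% of measured genes had a higher one. Decorin, Dcn (chromosome 10, 96942134 to 96980796), had 2976 reads (544 RPM) in the MHC403 library against 1666 (304 RPM) in the WT library, a ratio of 1.79 (1.69 to 1.90). Decorin therefore stayed within 2-fold, and 33.8% of measured genes had a higher ratio. The Dcn ratio was 1.22 with median-of-ratios scaling and 1.46 with totals that leave out mitochondrially encoded entries. There were 1.52 Bgn reads for each Dcn read in the MHC403 library and 0.325 in the WT library. The ratio of their ratios was 4.68 (4.19 to 5.22), a value that does not depend on how the libraries are scaled.

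Per kilobase of the windows that the table lists around annotated starts, Bgn stood at 2069.5 RPM in the MHC403 library, against 247 in the WT library. On the same scale Dcn, whose windows cover 800 bases around a pair of annotated starts, stood at 680.2 RPM in the MHC403 library and 380 RPM in the WT library. Bgn was thus the highest of the 9 genes in the MHC403 library on this scale, while Dcn was the highest in WT. The same genes were highest by RPM, which is not divided by window length.

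Asporin, Aspn (chromosome 13, 49639812 to 49662931), belongs to the same subgroup but carries no chondroitin or dermatan sulfate chain, and it binds collagen and TGF-beta. It had 117 reads (21.4 RPM) in the MHC403 library against 18 (3.28 RPM) in the WT library, a ratio of 6.51 (3.95 to 11.4). The interval of Aspn overlapped that of Bgn, and the ratio of the Bgn ratio to that of Aspn was 1.28 (0.730 to 2.14).

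**Figure D1:**
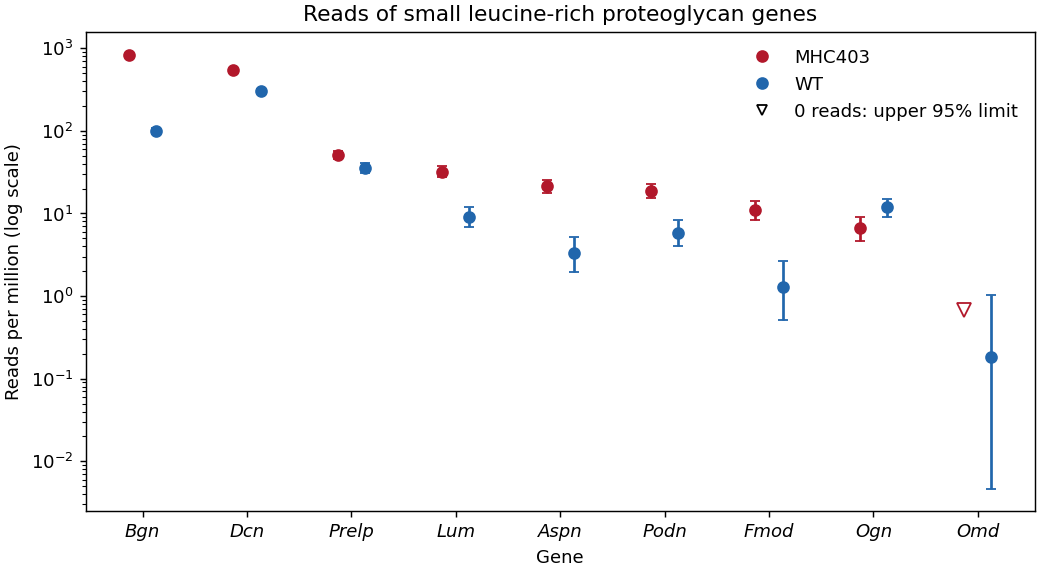
RPM (log axis) of each of the 9 genes in the MHC403 (left, red) and WT (right, blue) libraries. Bars are exact 95% counting intervals and the open triangle is the upper limit for Omd, which had 0 reads in MHC403. Bgn and Dcn stand far above the rest, and Ogn is the measured gene with its MHC403 point below its WT point.

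Lumican, fibromodulin and prolargin form a second subgroup, of which the first pair carry keratan sulfate chains and compete for sites on collagen. Fibromodulin, Fmod (chromosome 1, 135934092 to 135944854), had 60 reads (11.0 RPM) in the MHC403 library against 7 (1.28 RPM) in WT. Its ratio of 8.59 (3.92 to 22.3) was the highest point estimate of the family, but it rests on few reads and has the widest interval. Lumican, Lum (chromosome 10, 97028135 to 97035337), had 175 reads (32 RPM) in the MHC403 library against 50 (9.12 RPM) in WT, a ratio of 3.51 (2.55 to 4.91).

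Prolargin, Prelp (chromosome 1, 135806882 to 135817978), links collagen to the basement membrane proteoglycan perlecan. It had 279 reads (51.0 RPM) in the MHC403 library against 194 (35.4 RPM) in WT, a ratio of 1.44 (1.20 to 1.74). That is close to the median of all measured genes, and with median-of-ratios or TMM scaling its ratio was 0.986 or 0.988, just under 1. Osteomodulin, Omd (chromosome 13, 49678116 to 49687978), is a relative known from bone. Its 0 reads in MHC403 allow up to 0.549 RPM (3 counts), against 0.182 RPM for its single WT read, so no difference was detectable at this depth.

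Podocan, Podn (chromosome 4, 107687398 to 107704695), is a more distant member that binds collagen and has been studied in vascular smooth muscle. It had 102 reads (18.7 RPM) in the MHC403 library against 32 (5.84 RPM) in the WT library, a ratio of 3.19 (2.13 to 4.91). The ratio of the Lum ratio to that of Podn was 1.10 (0.637 to 1.87), so counting error does not separate them.

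Osteoglycin, Ogn (chromosome 13, 49703440 to 49719869), also called mimecan, was the exception in direction. It had 36 reads (6.58 RPM) in the MHC403 library against 65 (11.9 RPM) in the WT library, and was 1.80-fold (1.18 to 2.79) lower. The whole interval was on the lower side, and 96.9% of measured genes had a higher ratio. The call depended on scaling: Ogn was 2.63-fold lower with median-of-ratios or TMM scaling and 2.21-fold lower with totals that leave out mitochondrially encoded entries. Its point estimate was past 2-fold under each of these, while the rule on the whole counting interval was applied with library totals only.

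In descending order of ratio the measured genes ran Fmod, Bgn, Aspn, Lum, Podn, Dcn, Prelp and Ogn. Of the 7 pairs of neighbours in this order 3 could not be separated by counting error, namely Fmod and Bgn, Bgn and Aspn, and Lum and Podn. Aspn over Lum was 1.85 (1.0038 to 3.55), Podn over Dcn 1.78 (1.18 to 2.76), Dcn over Prelp 1.24 (1.02 to 1.51) and Prelp over Ogn 2.59 (1.63 to 4.18). Among all 28 pairs the interval held 1 in 4. These intervals are not adjusted for the number of pairs, compare the libraries and not the genotypes, and leave out differences between animals.

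**Figure D2:**
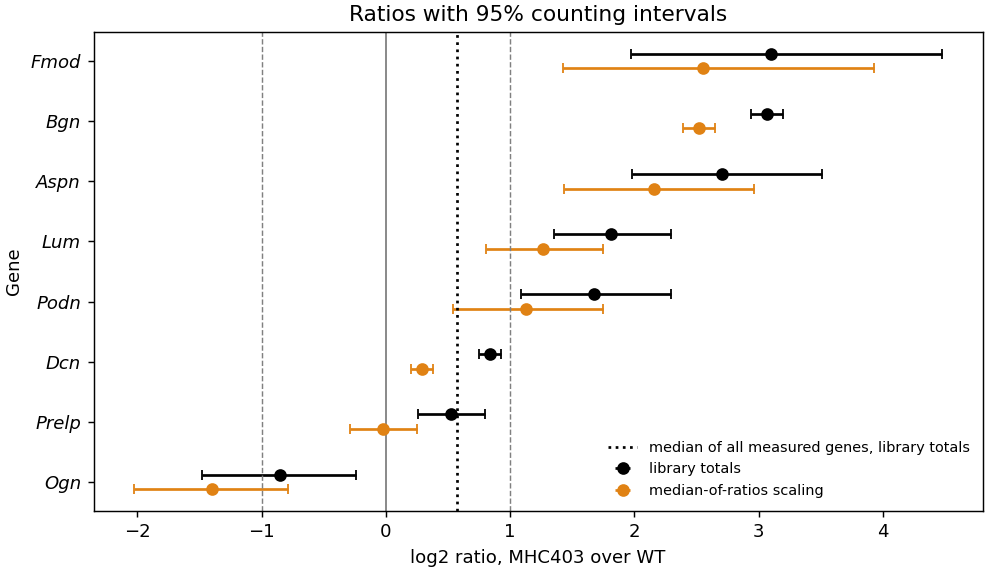
log2 ratio (MHC403 over WT) of the 8 measured genes with exact 95% counting intervals, under library totals (black) and median-of-ratios scaling (orange). Dashed lines mark 2-fold, the grey line a ratio of 1 and the dotted line the median of all measured genes, 0.57. Fmod, Bgn, Aspn, Lum and Podn have point estimates past 2-fold under both, and Ogn lies below a ratio of 1.

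Together the 9 genes took 0.151% of MHC403 reads (0.148 to 0.155) and 0.0470% of WT reads (0.0452 to 0.0488). The sum was 8272 reads in the MHC403 library against 2575 in the WT library, a ratio of 3.22 (3.08 to 3.37). Most of this excess was biglycan: without Bgn the sum was 3745 reads in MHC403 against 2033 in WT, a ratio of 1.85 (1.75 to 1.95). Without Bgn and Dcn the other 7 genes held 769 reads in MHC403 against 367 in WT, a ratio of 2.10 (1.85 to 2.38).

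Bgn was the larger part of the sum in the MHC403 library and Dcn the larger part in WT. Bgn made up 54.7% (53.6 to 55.8) of it in the MHC403 library and 21.0% (19.5 to 22.7) in the WT library. Dcn made up 36.0% (34.9 to 37.0) in the MHC403 library and 64.7% (62.8 to 66.5) in the WT library. Shares within a library do not depend on scaling, and the Dcn share was lower in MHC403 although its RPM was higher. That difference rests mostly on Bgn: without Bgn in the sum, Dcn made up 79.5% (78.1 to 80.7) in the MHC403 library and 81.9% (80.2 to 83.6) in the WT library.

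Among the smaller shares, Prelp held 3.37% (2.99 to 3.78) in the MHC403 library and 7.53% (6.54 to 8.62) in WT, and Ogn 0.435% (0.305 to 0.602) in MHC403 and 2.52% (1.95 to 3.21) in WT. Lum held 2.12% (1.82 to 2.45) in MHC403 and 1.94% (1.44 to 2.55) in WT, and Podn 1.23% (1.01 to 1.49) in MHC403 and 1.24% (0.852 to 1.75) in WT. With Bgn in the sum, counting error did not separate the shares of these 2 genes between the libraries. Without Bgn it did: Lum then held 4.67% (4.02 to 5.40) in MHC403 and 2.46% (1.83 to 3.23) in WT, and Podn 2.72% (2.23 to 3.30) in MHC403 and 1.57% (1.08 to 2.21) in WT, and set against the other remaining genes their ratios were 1.94 (1.40 to 2.73) and 1.75 (1.16 to 2.70). Aspn held 1.41% (1.17 to 1.69) in MHC403 and 0.699% (0.415 to 1.10) in WT. Fmod held 0.725% (0.554 to 0.933) in MHC403 and 0.272% (0.109 to 0.559) in WT, and its ratio over that of the other members was 2.68 (1.22 to 6.96).

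**Figure D3:**
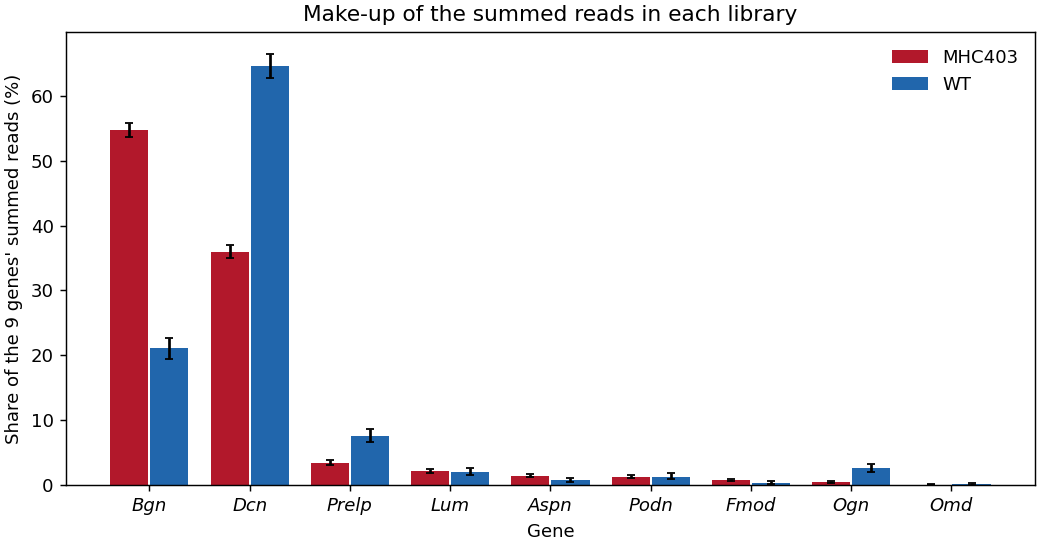
Share (%) of the summed reads of the 9 genes held by each gene in the MHC403 (left, red) and WT (right, blue) libraries, with exact 95% binomial intervals. Bgn is the larger part in MHC403 (54.7%) and Dcn the larger part in WT (64.7%).

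The authors' deposited table also gives each gene a score, headed as MHC403/WT and called the start-site score here. The labels and headers state neither its formula nor whether it measures start-site use. It is above 0 in 36.2% of measured genes. Decorin scored 144 in the authors' deposited table, and 5 of all 30385 entries scored higher, the maximum being 293. Its annotated starts lie 2850 bases apart, but reads are listed per gene and not per start, which leaves unknown how they divide between the starts. Biglycan, with 1 annotated start, scored 22 in the authors' deposited table and Prelp 3, while the other 6 genes scored 0.

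No gene with under 20 reads in either library had a score above 0, and Fmod, Aspn and Omd fell short of that. Lum, Podn and Ogn passed that depth and scored 0. Among the 286 entries with at least as many reads as Dcn in WT in both libraries, the median score in the authors' deposited table was 0, and 2 entries, Dcn included, scored as high. Of the 6 entries in the whole table at or above the decorin score, 2 had a pair of annotated starts and 4 had more, while none of the 6076 measured genes with 1 start reached it.

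**Figure D4:**
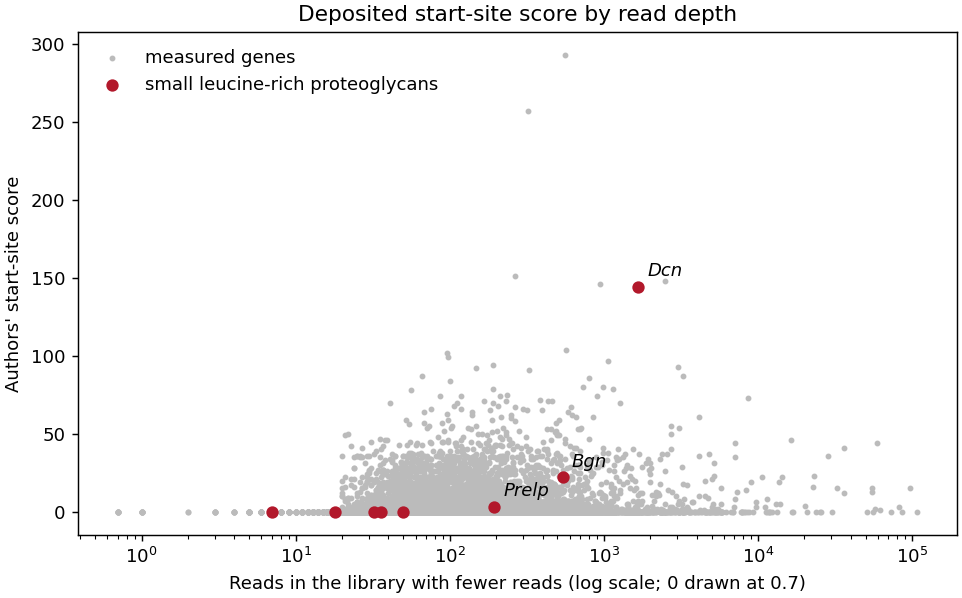
Authors' deposited start-site score against the reads of the library with fewer reads (log axis, 0 drawn at 0.7) for the measured genes (grey) and the small leucine-rich proteoglycans (red). Dcn, at a score of 144, lies among the 6 highest entries, while Bgn and Prelp score 22 and 3.

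Most of these genes lie in gene clusters left by ancient duplications, and measured partners within a cluster differed in ratio by more than counting error. On chromosome 10, Dcn, Lum, Kera and Epyc span 202 kb, and Dcn and Lum had ratios of 1.79 and 3.51, while keratocan (Kera) and epiphycan (Epyc), known from cornea and cartilage, had 0 reads in both libraries. By the floor of 3 counts, 0 reads allow up to 0.549 RPM in MHC403 and 0.547 RPM in WT, and the exact 95% upper limits are 0.675 and 0.673 RPM in the same order. On chromosome 13, Ecm2, Aspn, Omd and Ogn span 119.7 kb. There Aspn was 6.51-fold higher and Ogn 1.80-fold lower, with 3.25 Aspn reads for each Ogn read in the MHC403 library and 0.277 in the WT library. Ecm2, a matrix protein of the same locus, had 20 reads in MHC403 against 25 in WT, a ratio of 0.802 (0.422 to 1.504). It was not measured by the read minimum. Its interval overlapped that of Ogn, at 0.555 (0.359 to 0.847), and the pair was not compared directly.

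On chromosome 1, opticin (Optc), Prelp and Fmod span 151 kb, with Optc at 2 reads in MHC403 and 0 in WT. Fmod over Prelp was 5.94 (2.64 to 15.8), so these adjacent genes also differed. The nearest measured genes outside the clusters varied as well. Btg1, which lies before Dcn and encodes an antiproliferative protein, had 374 reads in MHC403 against 187 in WT, a ratio of 2.00 (1.68 to 2.40). Its relative Btg2, next to Fmod, had 453 reads in MHC403 against 141 in WT, a ratio of 3.22 (2.66 to 3.92). Scp2, a lipid carrier next to Podn, had 810 reads in MHC403 against 862 in WT, a ratio of 0.942 (0.855 to 1.04). No window of the 9 genes overlapped that of another entry.

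The rest of the family was near the limit of detection, with 1 of 9 further genes measured. Tsukushi (Tsku), a secreted modulator of growth factor signalling, had 62 reads in MHC403 against 13 in WT, a ratio of 4.78 (2.60 to 9.48). Chadl had 12 reads in MHC403 against 9 in WT, chondroadherin (Chad) 3 in MHC403 against 0 in WT, and the podocan-like gene Podnl1 1 in MHC403 against 0 in WT. Nyctalopin (Nyx), known from retina, had 0 in MHC403 against 2 in WT. These reads are too few to compare.

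Most measured enzymes that put chondroitin and dermatan sulfate chains on core proteins were higher. Of 16 listed genes 6 were measured, 5 of them higher by 2-fold or more, against 26.1% of all measured genes. None was lower, against 2.43%. Requiring the whole counting interval to pass 2-fold left 2 of the 6 higher, against 12.6%. Their median log2 ratio was 1.32, which is 0.75 above that of all measured genes. The chondroitin polymerising factors Chpf and Chpf2 had 421 and 305 reads in MHC403 against 85 and 75 in WT, with ratios of 4.96 (3.92 to 6.34) and 4.08 (3.16 to 5.32). The chondroitin synthase Chsy1 had a ratio of 3.01 (1.96 to 4.75), and the dermatan sulfotransferase Chst14 a ratio of 2.07 (1.33 to 3.29). Under median-of-ratios scaling 3 of these 6 passed 2-fold upwards, against 10.9% of all measured genes.

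Enzymes of the linker that starts every such chain lay nearer to the typical gene. Of 4 measured genes 1 was at least 2-fold higher, against 26.1% of all measured genes, and none lower, and their median log2 ratio of 0.47 was 0.10 below that of all measured genes. The galactosyltransferase B4galt7 had 115 reads in MHC403 against 57 in WT, a ratio of 2.02 (1.46 to 2.83), and the xylosyltransferase Xylt2 had 75 in MHC403 against 41 in WT, a ratio of 1.83 (1.24 to 2.75). B4galt7 fell short of 2-fold under each other scaling, at 1.38 with the median of ratios, 1.39 with TMM and 1.65 without mitochondrially encoded entries. Among keratan sulfate enzymes 2 were measured, of which the galactosyltransferase B4galt1, which also acts on many other glycans, had a ratio of 2.36 (2.07 to 2.69) and the other lay within 2-fold. B4galt1 also fell short under those scalings, at 1.61, 1.62 and 1.92 in the same order. For sulfate and nucleotide sugar supply, 3 of 5 measured genes passed 2-fold upwards, against 26.1% of all measured genes, and none downwards, against 2.43%. The list median log2 ratio of 1.05 was 0.48 above that of all measured genes, and 0 of the 5 had the whole counting interval past 2-fold. The 3 genes were the UDP-xylose synthase Uxs1 at 3.05 (1.90 to 5.06) and the sulfate donor synthases Papss1 at 2.07 (1.34 to 3.23) and Papss2 at 2.08 (1.29 to 3.42). Ugdh, which makes UDP-glucuronate, had a ratio of 1.83 (1.27 to 2.68). Under median-of-ratios scaling 1 of the 5 measured supply genes passed 2-fold upwards, against 10.9% of all measured genes.

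Of genes that process or cleave matrix core proteins, 6 were measured and 5 were higher, against 26.1% of all measured genes. None was lower, against 2.43%, and the median log2 ratio was 2.34. The membrane protease Mmp14 had 396 reads in MHC403 against 46 in WT, a ratio of 8.63 (6.35 to 11.98). The gelatinase Mmp2 had 1205 in MHC403 against 162 in WT, a ratio of 7.46 (6.32 to 8.84), and the aggrecanase family member Adamts1 230 in MHC403 against 54 in WT, a ratio of 4.27 (3.16 to 5.85). Pcolce, which enhances the procollagen protease Bmp1, had a ratio of 6.02 (5.02 to 7.26). Bmp1 itself, counted among the 5 at 3.47 (2.65 to 4.61), shares its windows with another entry. The Bmp1 reads therefore cannot be assigned to 1 entry. Adamts5, another aggrecanase, stood within 2-fold at 1.12 (0.779 to 1.61).

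Ligands and receptors known to bind these core proteins were measured in 10 of 17 cases. Of these 7 were higher by 2-fold or more, against 26.1% of all measured genes, and none was lower, against 2.43%. Tgfb2 was the highest by its bound at 11.0 (7.93 to 15.7), followed by the endocytic receptor Lrp1 at 4.17 (3.80 to 4.58) and Tgfb1 at 3.92 (3.16 to 4.91). Wisp1, at 6.39 (3.01 to 15.6), shares its windows with another entry, so its reads cannot be assigned to 1 entry. With median-of-ratios scaling 5 were higher by 2-fold or more, against 10.9% of all measured genes. On the lower side was 1, the VEGF receptor Kdr, against 7.59%.

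Fibrillar collagens, on whose fibrils the core proteins sit, had a higher median ratio than the proteoglycans. All 8 measured collagens passed 2-fold upwards, while 26.1% of all measured genes did so upwards and 2.43% downwards. The median log2 ratio of the collagens was 4.01 against 1.74 for the small leucine-rich proteoglycans. Col1a1, Col3a1 and Col1a2 had ratios of 26.2 (22.6 to 30.5), 19.8 (17.2 to 22.9) and 15.3 (13.5 to 17.4), each above the interval of Bgn, while Col5a3 at 4.36 (3.30 to 5.85) and Col27a1 at 3.87 (2.40 to 6.50) lay below it. Col11a1 had 77 reads in MHC403 against 0 in WT, 25.7-fold higher when WT is set at the floor of 3 counts, with an exact 95% lower limit of 20.4. Among other collagen-associated proteins 5 of 9 passed 2-fold upwards and none downwards, from Mfap5 at 21.9 (15.0 to 33.3) and Thbs4 at 18.2 (12.4 to 27.6) to Fbln2 at 6.37 (5.40 to 7.54) and Efemp2 at 6.29 (3.81 to 11.0). Fbln1, by contrast, stood at 1.08 (0.931 to 1.25).

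Of 11 listed large proteoglycans and link proteins 4 were measured, no link protein among them, and 3 of the 4 were higher, against 26.1% of all measured genes. Lubricin (Prg4) had 1056 reads in MHC403 against 125 in WT, a ratio of 8.47 (7.03 to 10.3), and versican (Vcan) 143 in MHC403 against 23 in WT, a ratio of 6.23 (3.99 to 10.1). Perlecan (Hspg2), the basement membrane partner of prolargin, had 4023 in MHC403 against 1569 in WT, a ratio of 2.57 (2.42 to 2.73). Agrin (Agrn), another basement membrane proteoglycan, stood at 1.19 (0.971 to 1.45). Under median-of-ratios scaling 2 of these 4 passed 2-fold upwards, against 10.9% of all measured genes.

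**Figure D5:**
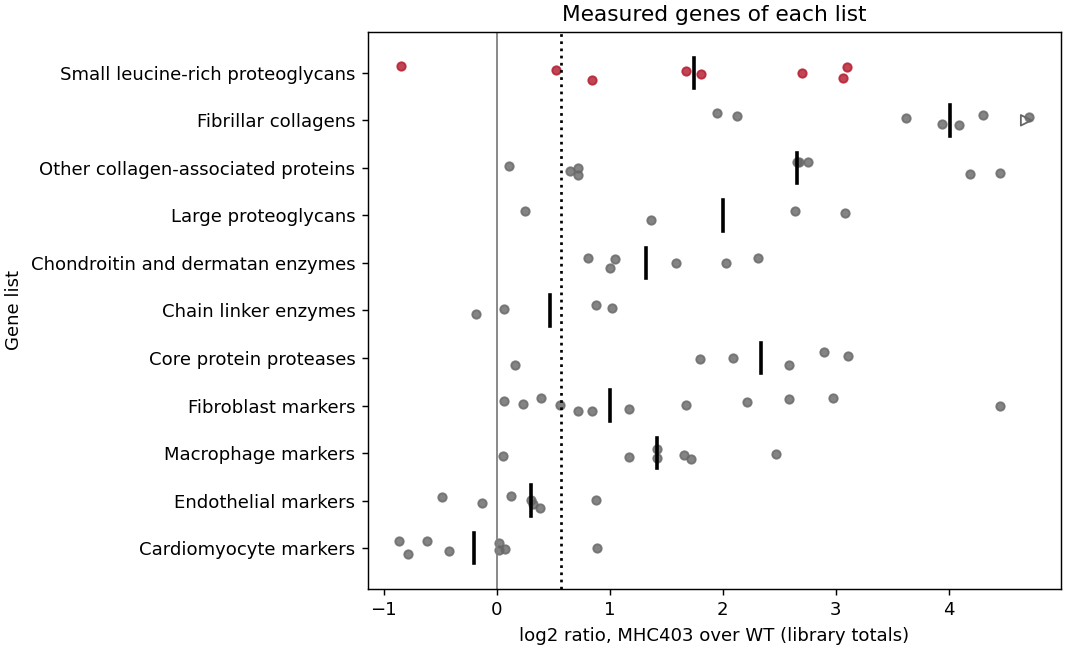
log2 ratio (MHC403 over WT, library totals) of the measured genes in each list, 1 point per gene. Black bars are list medians, the open triangle is Col11a1 with WT (0 reads) set at 3 counts, the dotted line is the median of all measured genes (0.57) and the grey line is a ratio of 1. The small leucine-rich proteoglycans spread from Ogn, below 0, to Fmod and Bgn, with a median of 1.74 against 4.01 for fibrillar collagens.

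In bulk heart RNA a gene can be higher because cells of a type are more numerous or because each cell holds more of its RNA, and these cannot be told apart here. All 12 fibroblast markers were measured, 6 of them 2-fold or more higher, against 26.1% of all measured genes, and none lower, against 2.43%. The median log2 ratio of these markers was 1.01. Summed, they took 2164 RPM in the MHC403 library and 957 RPM in the WT library. Mfap5 (21.9), Vim at 7.86 (7.10 to 8.71), Pcolce (6.02) and Pi16 at 4.64 (4.03 to 5.37) stood at the upper end, Pdgfra was at 2.25 (1.81 to 2.80), and Dpt at 1.65 (1.38 to 1.97), Gsn at 1.31 (1.25 to 1.37) and Ddr2 at 1.18 (0.874 to 1.58) at the lower end. Bgn thus lay near the upper markers and Dcn near Tcf21, at 1.79 (1.19 to 2.74), and Dpt. Because Tcf21 and Dpt were named after their values were seen, their nearness to Dcn is a description only. Mfap5, Dpt, Pcolce, Comp, Acta2 and Kdr are each counted in several lists.

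Markers of activated fibroblasts were measured in 5 of 7 cases and were higher in all 5, against 26.1% of all measured genes. Their summed level was 481 RPM in MHC403 and 51.6 RPM in WT. Postn, at 58.2 (37.1 to 97.0), and Ltbp2, at 40.1 (22.7 to 78.1), lay far above every proteoglycan of the family, Tnc had 243 reads in MHC403 against 0 in WT, which is 81.2-fold with WT set at 3 counts and has an exact 95% lower limit of 65.5, and Comp stood at 6.77 (3.67 to 13.6). Tendon and cartilage markers, from tissues known to be rich in Fmod, Prelp and Omd, summed to 42.6 RPM in MHC403 and 9.85 RPM in WT. Of these 9 markers 3 were measured, Comp, Scx at 3.57 (2.27 to 5.81) and Sox9 at 3.12 (1.78 to 5.76), and Acan, Hapln1 and Mkx had 0 reads in both libraries. Macrophage markers were higher in 6 of 7 cases, against 26.1% of all measured genes. Requiring the whole counting interval to pass 2-fold left 3 of the 7, against 12.6%. The macrophage markers summed to 499.8 RPM in MHC403 and 169.7 RPM in WT. They were led by Cd68 at 5.55 (4.02 to 7.80), C1qa at 3.29 (2.86 to 3.81), C1qb at 3.15 (2.78 to 3.59) and Mrc1 at 2.68 (1.92 to 3.80).

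No endothelial or cardiomyocyte marker passed 2-fold, while some smooth muscle markers did. Of 7 measured smooth muscle and pericyte markers 3 were higher (Cspg4 at 4.51, Acta2 at 2.94 and Tagln at 2.15), against 26.1% of all measured genes. None was lower, against 2.43%, and Pdgfrb stood at 1.84. The smooth muscle and pericyte markers summed to 499.8 RPM in MHC403 and 323 RPM in WT. All 7 endothelial markers lay within 2-fold, from Kdr, 1.40-fold (1.16 to 1.69) lower, to Pecam1 at 1.84 (1.59 to 2.12), with sums of 504 RPM in MHC403 and 412 RPM in WT. None of the 6 mesothelial markers was measured, and they summed to 24.0 RPM in MHC403 and 10.03 RPM in WT. All 8 cardiomyocyte markers were measured and within 2-fold, summing to 31328 RPM in MHC403 and 34182 RPM in WT, so the tissue carried the markers of its label. Actc1 stood at 1.85 (1.81 to 1.88), while Ckm, Tnni3 and Myl3 were 1.82-fold, 1.72-fold and 1.53-fold lower. Under median-of-ratios scaling 5 fibroblast, 3 macrophage and 2 smooth muscle and pericyte markers were higher by 2-fold or more, and 1 endothelial and 3 cardiomyocyte markers were lower. Over all measured genes 10.9% were higher and 7.59% lower under that scaling. The part of any cell type in the proteoglycan ratios was not tested.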

How the data were processed

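Heart RNA of MHC403/+ and WT mice, 1 pooled library each, was analysed from 1 table. TopHat 1.0.14 and mm9 are named in the submitters' processing notes, while for read counting neither program nor strand setting is given in the sources used here. Whole-number read counts for each gene were deposited by the authors, per the file headers, as were RPM, which on recomputation were reads scaled to the sum of the column. Per the file headers, the authors also deposited a fold (the ratio of RPM), a p-value and a score per gene, each headed as MHC403/WT. Of these the score alone, called the start-site score here, is reported.

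Ratios, shares and exact (Clopper-Pearson) or conditional exact 95% intervals were computed with Python 3.11.15 and scipy 1.17.1, and TMM factors with edgeR 4.0.16; interval coverage was tested on simulated data. A gene with 50 reads in both libraries has an interval of 0.662 to 1.51. With 1 library per genotype no test was possible. Reads carry no molecular identifiers, so intervals and the floor of 3 counts per library cover counting error only.

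Of 174 gene symbols in 19 lists, 171 were found directly, 1 by a RefSeq synonym, and 2 were not analysed here. The genes and lists were chosen with earlier results of these data known. All family genes, measured neighbours, up to 4 genes of each list with the counting bound farthest from 1, and genes at 0 in 1 library were named. Adamts5, Bmp1, Fbln1, Col5a3, Col27a1, Agrn, Pdgfra, Dpt, Gsn, Ddr2 and Tcf21 were added after their values were seen. Promoters came from RefSeq (GRCm38.p6) and were searched on both strands. Alternatives changed the scaling, read minimum, fold and the genes summed.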

Additional observations from a re-analysis of the deposited data

How the results depend on the processing

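Among the 8 measured members 5 passed 2-fold upwards by point estimate under every scaling tried, and with 20 reads or no minimum. With library totals the same 5 also had the whole counting interval past 2-fold. This interval rule was not combined with the other scalings. With median-of-ratios scaling the ratios of Lum and Podn were 2.40 and 2.19. With a minimum of 20 reads 3388 of all 12325 genes were higher, with no minimum 30%, and by the counting interval 12.6%. With a minimum of 200 reads 3 members were left, of which 1 (Bgn) was higher, against 989 of all 3998 genes. With a 4-fold threshold 3 of 8 members were higher, against 5.8% of all measured genes. The count of lower genes, 0 with library totals, was 1 (Ogn) with median-of-ratios scaling, with TMM and with totals without mitochondrially encoded entries. Over all 9507 measured genes 1034, 1040 and 1528 were higher under these scalings in the same order, and 722, 718 and 400 were lower. The median log2 ratio of 1.74 became 1.20, 1.20 and 1.45 under these scalings in the same order, and 0.84 with 200 reads, where fewer genes enter. The ratio of summed reads, 3.22, became 2.20, 2.21 and 2.63, and 1.85 without Bgn. The log2 ratio of Prelp turned from 0.53 to -0.020 with median-of-ratios scaling and -0.018 with TMM, both inside counting error of 0. The Podn share, MHC403 minus WT, was -0.0096 points of the sum and 1.15 points without Bgn in it, while that of Lum moved from 0.17 to 2.21 points and that of Dcn from -28.7 to -2.48 points. No window of the 9 genes overlapped another entry, so leaving such genes out changed nothing. Of 288 list counts under alternatives 236 stayed within 1.5 times and 52 did not. This tally includes the counts of lower genes, which were 0 in every list with library totals and mostly stayed at 0. It therefore overstates how stable the counts of higher genes were. Those of the chondroitin and dermatan list and of the sulfate supply list moved under every alternative. No paired analysis was possible because each genotype has 1 library. Depth limits Fmod, Aspn, Podn and Ogn, with 7, 18, 32 and 36 reads in their lower library, and leaves Omd without a ratio.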
